A study of Mus musculus with 17 samples.

Results

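The transcripts of the DNA replication machinery were compared between antibody-secreting cells (ASCs) from the bone marrow of young and aged mice. The machinery is represented here by 44 genes, chosen by name: the origin recognition complex and its loading factors, the Mcm2-7 helicase, the factors that activate it, the DNA polymerases and primase, the sliding clamp and its loader, the proteins that coat single-stranded DNA and finish Okazaki fragments, and the enzymes that supply deoxynucleotides. Of these, 42 carried at least 1 probe with a gene name, out of 12989 named genes, whereas Orc1 and Pola2 did not. The 42 genes had 76 probes. The cells came from the hind leg marrow of mice bought from 1 supplier and were sorted as ASCs from a surface stain that included IgD and CD138, with T cell and monocyte markers excluded. Young mice, aged 6 to 8 weeks, gave 9 samples and aged mice, over 17 months old, gave 6, none carrying a treatment or an engineered allele according to the labels, and young samples 3 and 4 were each hybridized to 2 arrays. Some samples were pools of mice, and which ones is not given. The mice counted in the methods outnumber the samples in the aged group alone, so that pooling and age cannot be told apart, and the spread between samples need not be the spread between mice.

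Before a cell divides, the origin recognition complex marks the places where copying can start, and Cdc6 and Cdt1 load the ring-shaped Mcm2-7 helicase onto them. In S phase, kinases, Cdc45, the GINS complex and Mcm10 switch the helicase on, primase and polymerase alpha lay down short primers, and polymerases delta and epsilon copy the strands while held in place by the Pcna ring. Many of these genes are transcribed under E2F factors as cells commit to division. Plasma cells, the end stage of the lineage, have largely left the cell cycle, whereas plasmablasts and precursor B cells divide.

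Biotin-labelled cDNA was hybridized to Illumina MouseWG-6 v2 BeadChips, where the brightness of a probe reports the level of its transcript. The signals were quantile normalized, so that all arrays share 1 distribution, and put on a log2 scale, on which a difference of 1 is a doubling. A probe was tested if it was detected above background in at least 7.5 of the 15 samples (detection p under 0.05) and differed at least 1.2-fold between its highest and lowest sample, and each gene was read at its brightest tested probe. Log2 fold changes, with their standard errors (SE), were fitted with limma as aged minus young, and adjusted p-values are Benjamini-Hochberg values over 11073 probes. The number of probes detected per sample ranged from 8998 to 15864 for young samples, with a median of 12368, and from 10401 to 17120 for aged samples, with a median of 12506, and the number of arrays limits the precision of every value. Chip and scan batches are not given in the sources used here and were not tested.

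The identity of the sorted cells was checked first. Of the plasma cell list, which includes the transcription factor gene Xbp1 and the secretory pathway gene Mzb1, all 13 tested genes had higher means in aged samples and 3 rose at an adjusted p under 0.05 (Mzb1, Creld2 and Xbp1). Over all 11073 tested probes, 117 were higher and 36 lower at that threshold. The summed linear signal of the 13 plasma cell genes was 12062 to 17033 in young and 16564 to 27881 in aged samples. The mean log2 signal of these genes in aged sample 2, at 9.52, lay within the young range of 9.19 to 9.68, and the other 5 aged samples lay between 10.19 and 10.55. Sdc1, which encodes CD138, the marker of the gate, had 3 probes and none passed the filter. They were detected in 1, 2 and 3 of the 9 young samples and in 5, 2 and 1 of the 6 aged samples. The young samples also carried transcripts of precursor B cells: Igll1 and Vpreb1 of the surrogate light chain and Dntt, the terminal transferase, were each detected in 9 of 9 young samples, against 3, 5 and 2 of 6 aged samples. Granulocyte transcripts were present in both groups as well. Their 12 tested genes summed to 25328 to 60071 in young and 24423 to 51740 in aged samples. In the young samples that range lay above the range of the plasma cell genes. In bulk samples, fewer cells of a type and less RNA per cell cannot be told apart.

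Most replication transcripts had a lower mean in aged than in young ASCs. Of 31 members with a tested probe, 30 had a lower mean in the aged samples, against a background of 51.4% of all 6289 tested genes. At an unadjusted p under 0.05 from limma, 12 of the 31 were lower, against 5.8% of all tested genes, and 0 were higher, against 9.03%. The median log2 fold change was -0.26 for the tested members and -0.01 for all tested genes. None of the 31 passed an adjusted p of 0.05 at its brightest probe with limma, where 0.382% of all tested genes were called lower, while the methods' t-test called 1 at the adjusted threshold and 14 at the unadjusted. When arrays were instead scaled to their 75th percentile, 27 of the 31 had a lower mean. At an unadjusted p under 0.05 from limma 6 were then lower, against 2.72% of all tested genes. The median with this scaling was -0.24 for the members and 0.06 for all tested genes.

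The filter could favour genes that were high in 1 group. Of the 31 tested members, 3 (Cdc6, Mcm2 and Mcm10) were each detected in only 2 of the 6 aged samples, and none was detected in fewer than 5 of the 9 young samples. With no filter, 38 of the 42 genes had a lower mean in the aged, 15 were lower at an unadjusted p under 0.05, against 3.89% of 12989 genes, and the median was -0.20. When only probes detected in all 15 samples were kept, 15 members remained, all with a lower mean, and 7 (Fen1, Lig1, Mcm5, Mcm6, Mcm7, Rrm1 and Rrm2) were lower at an unadjusted p under 0.05, against 9.69% of 2249 genes.

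**Figure D1:**
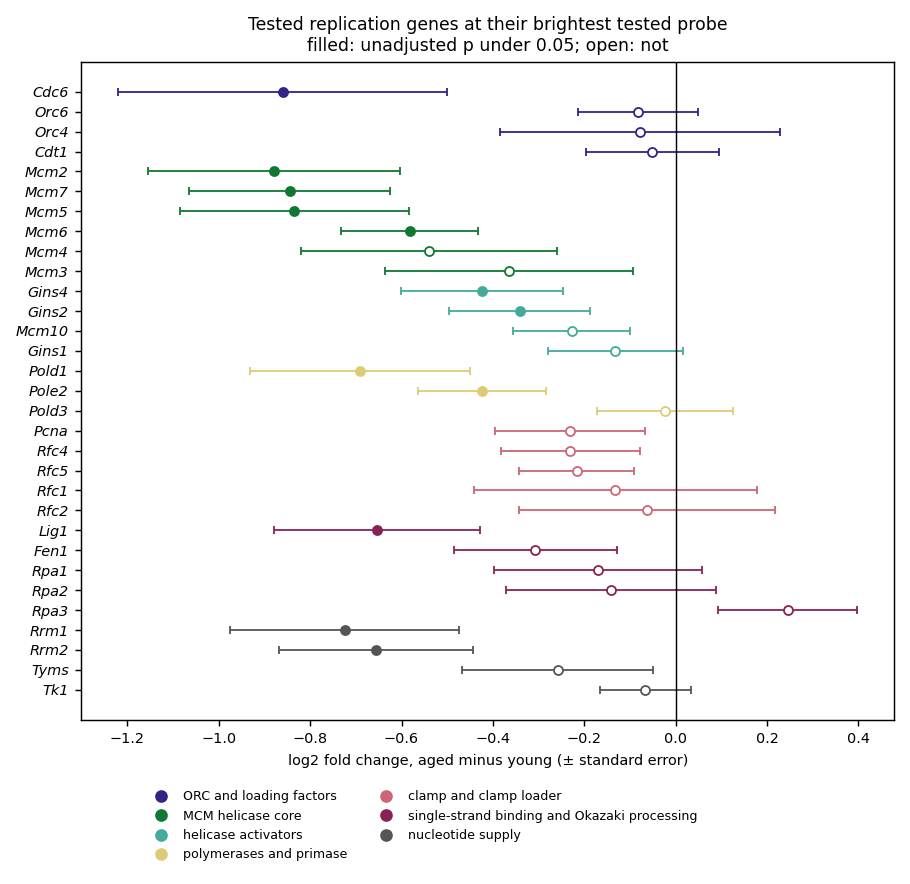
Log2 fold change of each of the 31 tested genes at its brightest tested probe (aged minus young, 6 against 9 samples), with bars of 1 standard error, coloured by role and filled where the unadjusted p was under 0.05. Most points of the Mcm2-7 helicase and those of ribonucleotide reductase (Rrm1 and Rrm2) lie furthest left together with Cdc6, Pold1 and Lig1, and only Rpa3 lies right of 0.

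The core of the helicase, Mcm2 to Mcm7, had a lower mean for all 6 subunits, with a median log2 fold change of -0.71, and 4 of the 6 were lower at an unadjusted p under 0.05. Of these 4, 2 (Mcm2 and Mcm7) kept an unadjusted p under 0.05 with 75th percentile scaling. Mcm6 had the smallest p of all members. Its log2 signal ran from 11.69 to 12.02 (median 11.85) in young and from 10.95 to 11.69 (median 11.18) in aged samples. The groups met only at 11.69, where aged sample 2 lay beside young sample 8, and the other aged samples were at or below 11.43. The young mean of 11.84 ± 0.12 (SD, n = 9) lay above the aged mean of 11.25 ± 0.27 (SD, n = 6). The log2 fold change was -0.58 (SE 0.15, unadjusted p = 0.000886, limma adjusted p = 0.0577), and with 75th percentile scaling it was -0.37 with an unadjusted p of 0.218.

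Mcm7 ran from 9.31 to 10.62 (median 9.79) in young and from 8.71 to 9.54 (median 9.03) in aged samples. Aged sample 1 was the one aged sample above the lowest young sample, which was young sample 5. The log2 fold change was -0.84 (SE 0.22, limma adjusted p = 0.0597), and Mcm7 was 1.80-fold higher in the young. For Mcm5 the young samples lay between 9.86 and 11.55 (median 11.12) and the aged between 9.72 and 10.83 (median 9.94). Young sample 6, at 9.86, fell among the aged samples, and every other young sample was at or above 10.57, while aged sample 2, at 10.83, lay within the young range. The log2 fold change of Mcm5 was -0.83 (SE 0.25, limma adjusted p = 0.104), and with 75th percentile scaling it was -0.67 with an unadjusted p of 0.0528.

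Mcm2 had the most negative log2 fold change of the tested members, -0.88 (SE 0.28, limma adjusted p = 0.129). Its log2 signal ran from 8.10 to 10.08 (median 8.99) in young and from 7.92 to 8.78 (median 8.09) in aged samples. Only 7 of 9 young and 2 of 6 aged samples detected it, and young samples 2, 3 and 8, at 8.10, 8.76 and 8.18, lay within the aged range. Mcm4 (-0.54, unadjusted p = 0.0675) and Mcm3 (-0.36, unadjusted p = 0.193, both from limma) had lower means without passing either threshold. Averaged over the 6 subunits, no aged sample reached a young one, with 9.87 to 10.62 in the young and 9.44 to 9.54 in the aged.

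**Figure D2:**
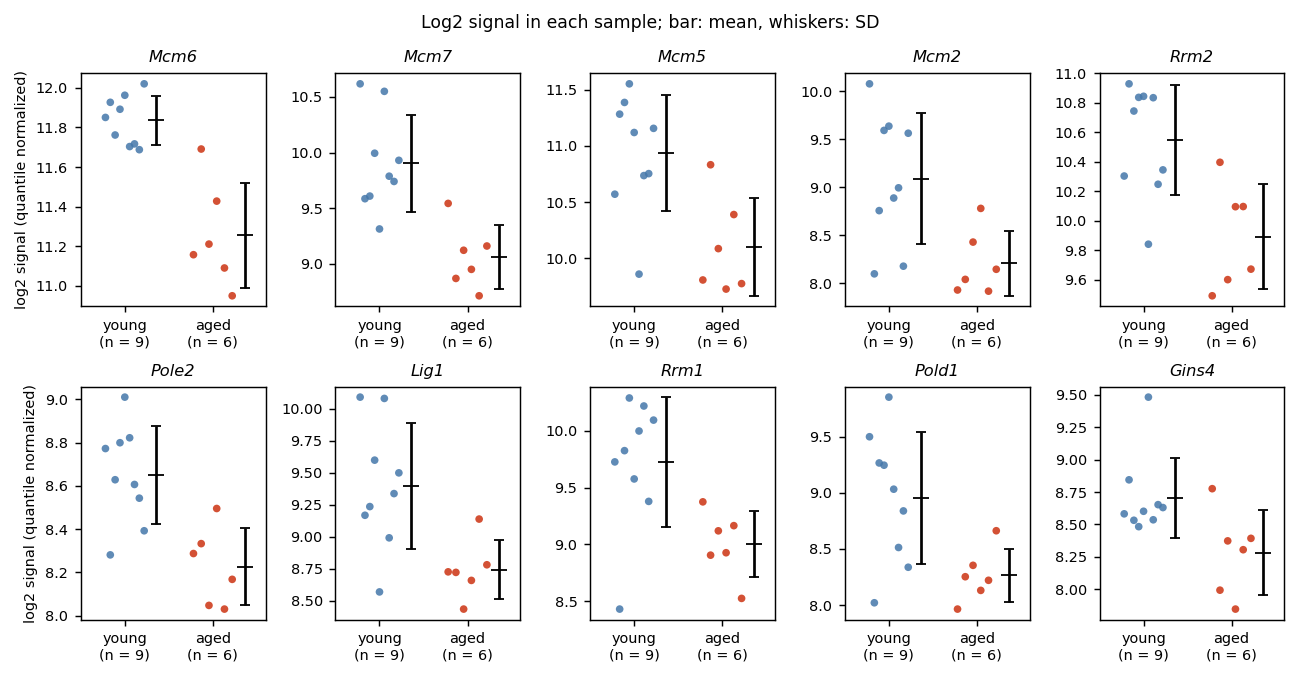
Quantile normalized log2 signal of the 10 genes with the smallest p, 1 point a sample (9 young, 6 aged), with the mean and SD of each group beside the points; each panel has its own vertical axis. The groups touch or overlap in each panel, and single samples stand off, such as young sample 2 at 8.43 for Rrm1 and young sample 6 at 9.48 for Gins4.

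E2F factors are the known regulators of many of these genes, so the promoters of the members were searched for the E2F letters TTTCCCGC, TTTGGCGC and TTTCGCGC on both strands, in the 300 bases around each annotated start (RefSeq, GRCm38.p6). Of 45 promoters belonging to 37 of the 44 genes, 15 (33.3%) held at least 1 of them, against 1.84% of 32851 mouse promoters. The promoters below are those of the 4 members with the smallest p among those that hold a match, and capitals mark the matched letters. Mcm6 is at chr1:128359656-128359955 (minus strand), Mcm7 at chr5:138171834-138172133 (minus strand), Mcm5 at chr8:75109259-75109558 (plus strand) and Pole2 at chr12:69228141-69228440 (minus strand), each printed in the direction of the gene.
Mcm6: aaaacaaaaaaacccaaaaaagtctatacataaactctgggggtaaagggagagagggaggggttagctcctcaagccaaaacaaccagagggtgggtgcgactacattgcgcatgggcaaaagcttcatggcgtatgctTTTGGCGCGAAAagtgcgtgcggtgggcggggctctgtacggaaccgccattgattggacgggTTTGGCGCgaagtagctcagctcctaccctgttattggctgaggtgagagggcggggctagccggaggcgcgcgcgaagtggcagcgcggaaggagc
Mcm7: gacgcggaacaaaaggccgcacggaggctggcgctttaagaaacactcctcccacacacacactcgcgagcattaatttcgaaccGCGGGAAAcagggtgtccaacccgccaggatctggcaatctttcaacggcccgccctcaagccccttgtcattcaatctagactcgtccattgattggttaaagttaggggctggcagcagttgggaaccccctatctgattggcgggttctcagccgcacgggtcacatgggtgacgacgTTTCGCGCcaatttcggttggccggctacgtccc
Mcm5: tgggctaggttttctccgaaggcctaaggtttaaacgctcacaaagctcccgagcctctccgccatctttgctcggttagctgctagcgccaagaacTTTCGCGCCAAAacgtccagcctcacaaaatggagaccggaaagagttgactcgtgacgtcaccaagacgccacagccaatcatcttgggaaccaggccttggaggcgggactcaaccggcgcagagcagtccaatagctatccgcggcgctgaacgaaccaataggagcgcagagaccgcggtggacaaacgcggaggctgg
Pole2: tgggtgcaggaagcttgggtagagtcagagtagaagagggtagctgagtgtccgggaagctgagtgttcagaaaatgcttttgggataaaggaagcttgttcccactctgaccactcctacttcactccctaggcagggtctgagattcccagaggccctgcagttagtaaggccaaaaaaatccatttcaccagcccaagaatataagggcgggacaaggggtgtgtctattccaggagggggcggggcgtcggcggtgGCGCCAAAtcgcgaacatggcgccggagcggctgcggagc
Mcm6 held 3 matches, 2 of them overlapping, which began 110, 106 and 47 bases before the annotated start. Mcm7 held 1 match 165 bases before the start and another just after it. Mcm5 held 2 overlapping matches, 153 and 149 bases before the start, and the single match of Pole2 lay just after it. The CCAAT box stood in 55.6% of the member promoters and in 37.4% of all promoters, and the letters TTTGAA in 11.1% and 17.9%. These matches are letters in a window and not bound sites. The 10 tested members with an E2F match had a median log2 fold change of -0.62 and 7 of them had a lower mean at an unadjusted p under 0.05, while the 16 without had a median of -0.22 and 3 such genes. That difference was not tested. Mcm2, Rrm1 and Rrm2 were among those without a match, and Cdt1 (-0.05) and Pold3 (-0.02) among those with one. Gins1, Gins2, Gins4, Prim2, Rfc2, Mcm4 and Pole had no promoter in the table.

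Among the loading factors, the values were uneven. Cdc6, the ATPase that works with the origin recognition complex to load the helicase, had a log2 fold change of -0.86 (SE 0.36, unadjusted p = 0.0263, limma adjusted p = 0.276). Its young samples spread from 8.05 to 10.90 (median 8.85), and its aged samples from 7.71 to 8.93 (median 8.00). A few young samples carried this difference. Young samples 2, 3, 4 and 7, at or below 8.27, and young sample 8, at 8.85, lay within the aged range. Young sample 5 was the highest at 10.90. Cdt1, its partner, was near 0 at -0.05 (unadjusted p = 0.733), as were Orc4 (-0.08) and Orc6 (-0.08). Orc2, Orc3 and Orc5 were not tested. No young and 1 of the 6 aged samples detected Orc2, and Orc5 was detected in 1 sample of each group. Orc3, detected in 3 young and 4 aged samples, ran from 7.87 to 9.29 (median 8.07) in young and from 8.14 to 8.86 (median 8.36) in aged samples, a difference in means of 0.16.

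The tested factors that activate the helicase, Gins1, Gins2, Gins4 and Mcm10, all had lower means in the aged, and 2 of these 4 were lower at an unadjusted p under 0.05. Gins4, a GINS subunit, ran from 8.48 to 9.48 (median 8.60) in young and from 7.85 to 8.78 (median 8.34) in aged samples. Aged sample 1, at 8.78, lay above most young samples, and the other 5 aged samples lay below every young sample. Its log2 fold change was -0.42 (SE 0.18, limma adjusted p = 0.275), and without young sample 6 it was -0.33. Gins2 had a log2 fold change of -0.34 (unadjusted p = 0.0382 from limma), Mcm10 of -0.23 and Gins1 of -0.13. Cdc45 and Gins3 were not tested, and their differences in means were -0.02 and -0.06. The mean of the 4 tested genes was 8.43 to 8.73 in young and 8.10 to 8.40 in aged samples, without overlap.

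Of the polymerases and primase only 3 of the 8 genes with a probe were tested. Pold1, the catalytic subunit of polymerase delta, ran from 8.02 to 9.85 (median 9.03) in young and from 7.97 to 8.66 (median 8.24) in aged samples, with a log2 fold change of -0.69 (SE 0.24, limma adjusted p = 0.173). The ranges overlapped at young samples 2, 7 and 9. Pole2, an accessory subunit of polymerase epsilon, ran from 8.28 to 9.01 (median 8.63) in young and from 8.03 to 8.50 (median 8.23) in aged samples, with a log2 fold change of -0.42 (SE 0.14, limma adjusted p = 0.151). Every aged sample lay below the young median for both genes. Pold3, an accessory subunit of polymerase delta, was 8.08 to 8.97 (median 8.42) in young and 8.17 to 8.75 (median 8.43) in aged samples. The groups overlapped throughout, and its log2 fold change of -0.02 became 0.0093 with 75th percentile scaling.

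The other polymerase genes were mostly at background. Prim2, the large subunit of primase, was above background in 2 of the 9 young samples and in 0 of the 6 aged samples. It ran from 7.94 to 9.92 (median 8.14) in young and from 7.88 to 8.05 (median 7.98) in aged samples. Its difference in means, -0.34, rested on young sample 6 at 9.92, since it was -0.14 without that sample. Pole, the catalytic subunit of polymerase epsilon, was also detected in 2 young and 0 aged samples, with 7.89 to 8.46 (median 8.04) in young and 7.86 to 7.96 (median 7.91) in aged samples. Its difference in means was -0.19, and the signals of both genes were too close to background for a fold. Pola1, Prim1 and Pold2 had differences of -0.09, 0.11 and -0.05 and were each detected in at most 3 samples of a group.

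The clamp and its loader had a median log2 fold change of -0.22 over 5 tested genes. Pcna, the sliding clamp, averaged 9.38 ± 0.11 (SD, n = 9) in the young group and 9.14 ± 0.23 (SD, n = 6) in the aged group, with a log2 fold change of -0.23 (SE 0.16, limma unadjusted p = 0.172). Of the 4 tested subunits of replication factor C, Rfc4 (-0.23) and Rfc5 (-0.22) had all 6 aged samples below the young median, and Rfc1 (-0.13) and Rfc2 (-0.06) did not. None of these 5 genes passed an unadjusted p of 0.05 with limma. Rfc3 was not tested, and was detected in 1 young and 0 aged samples.

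Of the 5 tested genes for single-strand binding and Okazaki fragments, 1 was lower at an unadjusted p under 0.05 with limma. Rpa3, the smallest subunit of the single-strand binding complex RPA, was the one tested member with a higher mean in the aged. It ran from 8.13 to 8.81 (median 8.45) in young and from 8.28 to 9.04 (median 8.69) in aged samples, with a log2 fold change of 0.25 (SE 0.15, unadjusted p = 0.123, limma adjusted p = 0.509), and the groups overlapped. Rpa1 and Rpa2 had log2 fold changes of -0.17 and -0.14, with unadjusted p-values of 0.462 and 0.547 from limma. Lig1, the ligase that seals Okazaki fragments, ran from 8.57 to 10.09 (median 9.34) in young and from 8.43 to 9.14 (median 8.72) in aged samples. Its log2 fold change was -0.65 (SE 0.23, limma adjusted p = 0.170), and only young samples 5 and 7 lay below the highest aged sample. Fen1, the flap endonuclease that trims the fragments before Lig1 acts, had a log2 fold change of -0.31 (unadjusted p = 0.101 from limma).

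Among the genes of nucleotide supply, both subunits of ribonucleotide reductase had lower means in the aged. This enzyme makes the deoxynucleotides, and Rrm2 is its S phase subunit. Rrm2 gave the one call of the set: at its second probe it fell, with a log2 fold change of -0.89 (SE 0.21, limma adjusted p = 0.0371). That probe read 10.09 to 10.87 (median 10.56) in young and 9.12 to 10.21 (median 9.70) in aged samples. At its brightest probe Rrm2 ran from 9.84 to 10.93 (median 10.75) in young and from 9.49 to 10.40 (median 9.88) in aged samples, with a log2 fold change of -0.66 (SE 0.21, limma adjusted p = 0.139). At both probes all 6 aged samples lay below the young median. With 75th percentile scaling the brightest probe gave -0.52 with an unadjusted p of 0.0857.

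Rrm1, the large subunit, ran from 8.43 to 10.29 (median 9.83) in young and from 8.52 to 9.37 (median 9.02) in aged samples. Young sample 2 was the lowest of all 15 at 8.43, and the other 8 young samples, at or above 9.38, lay above every aged sample. The log2 fold change was -0.72 (SE 0.25, limma adjusted p = 0.170), and without young sample 2 it was -0.89 with an adjusted p of 0.0194 from limma. With 75th percentile scaling it was -0.55 and missed the unadjusted threshold as well (p = 0.0778). Tyms and Tk1, which make and salvage thymidylate, had log2 fold changes of -0.26 and -0.07 with unadjusted p-values of 0.232 and 0.512 from limma.

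Several genes could be read more than once. Of the 76 member probes, 47 were tested. Of these, 45 had a lower mean in the aged and 18 were lower at an unadjusted p under 0.05 with limma, against 5.27% of all tested probes, and 1 was called at an adjusted p under 0.05, against 0.325%. Of 10 genes with several tested probes, 9 had the same direction at each, and Rfc2 had 1 probe of 3 on the other side of 0. The 4 probes of Mcm6 gave log2 fold changes of -0.46 to -0.82, and the 3 probes of Rrm1 gave -0.45 to -0.72. Cdc6 was less even, with -0.86 at one tested probe and -0.25 at the other. Rpa2 had -0.14 at its brightest probe and -0.47 at a dimmer one with an unadjusted p of 0.0435 from limma. Lig1 had -0.65 at its brightest probe. Its other tested probes gave -0.34 and -0.41 and missed the unadjusted threshold (p = 0.160 and 0.116 from limma). Probes of a gene were read on the same arrays and are not replicates.

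**Figure D3:**
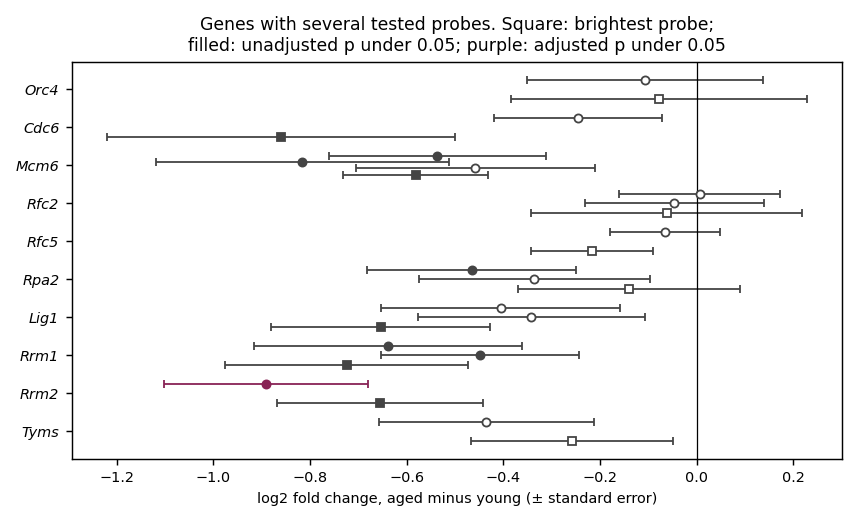
Log2 fold change (aged minus young) with bars of 1 standard error for each tested probe of the 10 genes with several. Squares are the brightest probe, filled symbols have an unadjusted p under 0.05, and the 1 purple symbol is the Rrm2 probe at an adjusted p of 0.0371; the probes of a gene mostly lie on the same side of 0.

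The members were next followed across samples. Averaged over the 31 tested genes, the log2 signal was 9.14 to 9.53 (median 9.28) in young and 8.91 to 8.97 (median 8.95) in aged samples, so that the aged samples lay close together and below every young sample. Single genes overlapped more. All 6 aged samples lay below the young median for 11 of the 31 genes, against 8.51% of all tested genes, and below every young sample for 0 of them, against 0.207%. The highest of the 15 samples was young for 27 of the 31 genes and the lowest was aged for 22. With 9 young and 6 aged samples, the highest would more often be young even without a difference. The same counts over all tested genes were not made. Young sample 1 was highest for 7 genes and young sample 9 for 5. Young samples 8 and 2 had the lowest means among the young, 9.14 each.

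The spread between arrays was of the same order as many of these differences. The 2 arrays of young sample 3 differed by a median of 0.24 on the log2 scale over the 31 genes, and those of young sample 4 by 0.33, with the widest gaps at Rfc1 (1.29) and Orc4 (1.49). The SD over samples had a median of 0.38 among young and 0.29 among aged samples. The median size of the log2 fold change was 0.26.

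**Figure D4:**
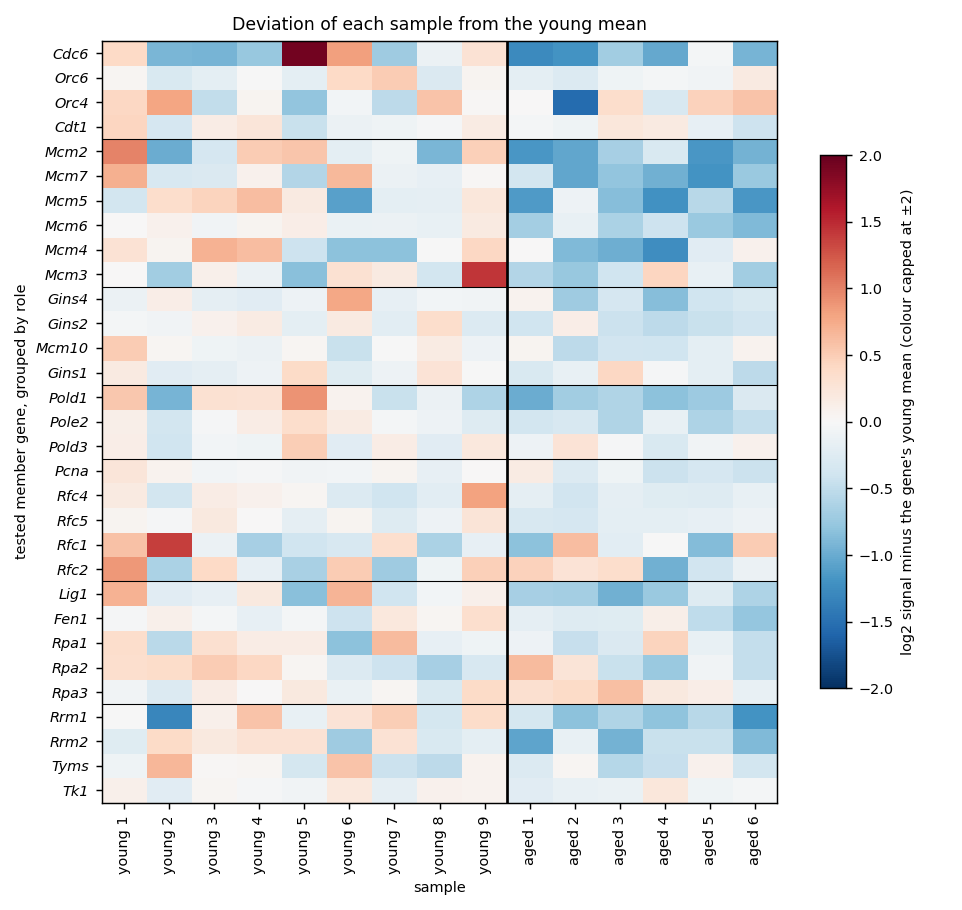
Each cell is the log2 signal of a tested gene (rows, grouped by role) in a sample (columns, 9 young then 6 aged) minus the mean of that gene over the young samples, with red above it and blue below it. Blue dominates the 6 aged columns in the helicase and nucleotide rows, while Rpa3 is red in 5 of them and single young cells, such as Cdc6 in young sample 5, stand out in red.

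A subset of the members is known for transcripts that peak at the entry into S phase or within it. Of its 14 tested genes all had lower means in the aged, with a median log2 fold change of -0.44, and 7 were lower at an unadjusted p under 0.05 with limma. The other 17 tested members had a median of -0.22, with 16 lower means and 5 genes at that threshold. The mean of the periodic genes was 9.66 to 10.08 in young and 9.27 to 9.62 in aged samples, and that of the others 8.65 to 9.08 and 8.38 to 8.61. Neither overlapped, but in both the lowest young and the highest aged mean lay close. The periodic genes were also the brighter ones, and the signals were not background-corrected. With a background correction (normexp), the median of all tested members was -0.58 instead of -0.26. The difference between both subsets was not tested, nor was the part of brightness in it.

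Other genes of replication outside the 44 were read for comparison. Of 19 tested genes for fork protection, topoisomerases, kinases and accessory factors, 13 had lower means. At an unadjusted p under 0.05, 7 of them were lower and 0 higher, 0 passed the adjusted threshold with limma, and the median was -0.16. The smallest p-values belonged to Top2a, which untangles the copied strands (-0.79, adjusted p = 0.0624), and to Tipin (-0.80, adjusted p = 0.109) and Clspn (-0.74, adjusted p = 0.119, all from limma), which stabilise stalled forks. For other enzymes of nucleotide supply, 8 of 15 tested genes had lower means, with a median of -0.05. Of these 3 were lower at an unadjusted p under 0.05 (Dck at -0.52, Gart at -0.43 and Paics at -0.45) and 2 higher (Nme2 at 0.40 and Shmt2 at 0.53), and 0 passed the adjusted threshold with limma. Dck salvages deoxynucleosides, and Gart and Paics build purines.

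The regulators upstream of these genes were divided. Of 12 tested genes for E2F factors, the retinoblastoma family and S phase kinases, 6 had lower and 6 higher means, 5 were lower and 0 higher at an unadjusted p under 0.05, 0 passed the adjusted threshold with limma, and the median was -0.07. Tfdp1, the dimerization partner of E2F factors, had a log2 fold change of -1.24 (SE 0.39, limma adjusted p = 0.132). Cdk2 was at -0.75 (adjusted p = 0.137), Rbl1 at -0.62 (adjusted p = 0.143) and E2f1 at -0.77 (adjusted p = 0.206, all from limma), whereas Rb1 was at 0.13 and E2f2 at 0.08.

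Genes of mitosis and of precursor B cells differed in the same direction as the members. Of 15 tested mitosis genes, 14 had lower means, with a median of -0.29. Top2a (-0.79) is counted both in this list and among the other replication genes above. Birc5, which encodes survivin, fell (-0.79, limma adjusted p = 0.0188), 6 genes in all had a lower mean with an unadjusted p under 0.05, and the mitotic kinase gene Aurka, at 0.45, was the one with a higher mean (unadjusted p = 0.0201). The 8 tested precursor B genes all had lower means, with a median of -0.74, and 5 of them passed the adjusted threshold of 0.05 with limma (Igll1, Dntt, Vpreb1, Rag1 and Myb). Their summed signal was 5670 to 9472 in young and 3213 to 4891 in aged samples, without overlap. Young sample 1 had the highest mean over the precursor B genes (9.83) and over the replication members (9.53), and young samples 2 and 8, lowest among the young for the members, were also lowest for the precursor B genes (9.11 and 9.21). Other lists shared part of this order. Over the mature B genes young sample 1 was also highest (10.17) and young sample 2 lowest among the young (9.49). Young sample 8, at 9.64, lay at the young median there. Among the aged samples, the member means spanned only 8.91 to 8.97. Aged sample 4 had the highest precursor B mean (8.83) and aged sample 6 the lowest (8.50), and both had a member mean of 8.91. The part of precursor B cells in the replication values was not tested.

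**Figure D5:**
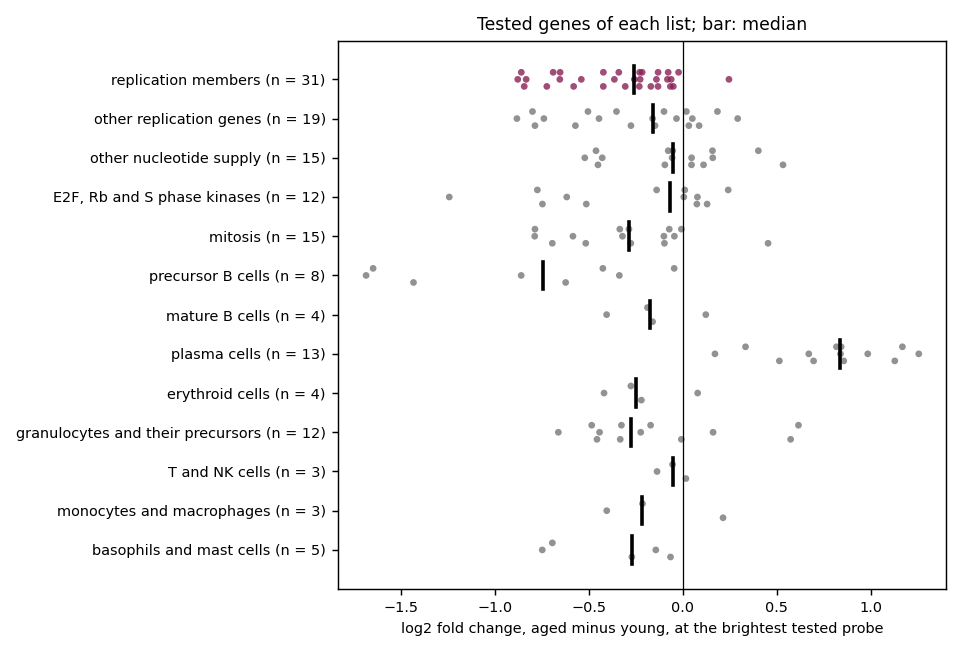
Log2 fold change (aged minus young) of each tested gene at its brightest tested probe, by gene list, with the list's median as a bar and its number of tested genes in brackets. The replication members have a median of -0.26 and the precursor B genes of -0.74, and all 13 plasma cell genes lie right of 0.

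Summed signals of other marrow cell lists overlapped between the groups, while single genes among them differed. The mature B cell list had a summed signal of 3620 to 5732 in young and 3149 to 4690 in aged samples, with Cd79a, Pax5 and Bank1 among its genes without a named probe. The summed granulocyte signal was 25328 to 60071 in young and 24423 to 51740 in aged samples, and the erythroid signal 1890 to 4312 and 1778 to 3150. The T and NK cell sum was 1058 to 1525 in young and 958 to 1500 in aged samples. The Cd3e gene of T cells, which the filter removed, had 2 probes, each above background in 1 of the 9 young samples and in 5 of the 6 aged. The sums of monocytes and macrophages (1926 to 5271 and 1913 to 4160) and of basophils and mast cells (1851 to 4047 and 1567 to 3561) overlapped as well. Several of these lists had median log2 fold changes near the -0.26 of the replication members. The median was -0.28 over 12 granulocyte genes, -0.25 over 4 erythroid genes and -0.21 over 3 monocyte genes. It was -0.17 over 4 mature B genes and -0.05 over 3 T and NK genes. All 5 tested basophil and mast cell genes had lower means in the aged, with a median of -0.27, and the basophil protease genes Prss34 (-0.75, unadjusted p = 0.0103) and Mcpt8 (-0.70, unadjusted p = 0.0423) were lower at the unadjusted threshold. Of the granulocyte genes, Ngp was lower (-0.46, unadjusted p = 0.00844) and Prtn3 higher (0.62, unadjusted p = 0.00242), and of the monocyte genes Ccr2 was lower (-0.41, unadjusted p = 0.0224). None of these 5 genes passed an adjusted p of 0.05 with limma. The part of these cells in the replication values was not tested.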

How the data were processed

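The deposited arrays measured sorted bone marrow ASCs of 9 young and 6 aged samples on 17 arrays. Amplified, biotin-labelled cDNA was hybridized according to the methods. The scanner software is not given in the sources used here. The authors deposited intensity values, 1 average signal per probe and array, neither background-corrected nor normalized between arrays, each with a detection p-value deposited by the authors. The authors also deposited quantile normalized signals for 26509 probes, which equal a quantile normalization to the median array (0 values differed by more than 1e-04 on the log2 scale) and served as an alternative. No column was left unused.

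Quantile normalization of the signals of 45281 probes was done with limma 3.58.1 (R 4.3.3), and the values were put on the log2 scale and averaged over both arrays of young samples 3 and 4. A sample with 2 arrays counted as detecting a probe if either did. The filter (detection p under 0.05 in at least 7.5 of 15 samples, range at least 1.2-fold) kept 11073 probes. GEO's platform annotation, which can be old, names 1 gene for 20873 probes and several for 9, which were not used. It named 8638 of the tested probes, and the 2435 others were tested unnamed. The groups were compared by lmFit and eBayes (intensity trend, two-sided, Benjamini-Hochberg, threshold 0.05). No list was tested, and lists are described by counts and medians. A gene was read at its brightest tested probe. Bounds set each aged array no lower than the lowest signal among its detected probes.

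The member list and the other lists were chosen with earlier results of these data known, so that their direction is not independent evidence. Values by sample are given for the 10 members with the smallest p, the 2 with the highest log2 fold change and the 3 untested members with the largest difference. The range of Cdc6 was added after its values were seen. Samples take their group from their label. The result of 1 marker gene is not reported here. On simulated data for this comparison over 11073 probes, 200 of them changed, the test found 6.56% of log2 changes of size 0.5, 66.7% of size 1 and 90.4% of size 1.5, besides 4 false calls. Promoters came from a RefSeq table of GRCm38.p6. Alternatives covered the filter, the scaling, the background correction, the test, array weights, repeat arrays, the probe of a gene, the replicate number and each sample left out. The data.table package (version 1.17.8) read the files, and matplotlib 3.10.9 with pandas 2.3.3 drew the figures.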

Additional observations from a re-analysis of the deposited data

Results flagged for a closer look

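In 34 sets of values (a gene, or a mean over member genes, in a group), 4 held a sample that stood apart from the others of its group by Dixon's criterion. Chance alone marks about 5% of groups. All 4 were young samples. For Rrm1, young sample 2 was low at 8.429, against 9.378 to 10.29 in the other 8 young samples. For Gins4, young sample 6 was high at 9.482, against 8.483 to 8.845. For Prim2, young sample 6 was high at 9.917, against 7.937 to 8.574, and for Orc3, young sample 1 was high at 9.294, against 7.87 to 8.469. Values are log2 signals. Young sample 2 thus lowered the difference of Rrm1 between the groups (-0.72, and -0.89 without it), young sample 6 widened those of Gins4 (-0.42, and -0.33 without it) and Prim2 (-0.34, and -0.14 without it), and young sample 1 narrowed that of Orc3 (0.16, and 0.29 without it).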

How the results depend on the processing

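The count of 153 probes at an adjusted p under 0.05 moved with the setting. It was 45 with no filter, 89 with 75th percentile scaling, 99 with the methods' t-test and 702 with array weights, and leaving out 1 sample gave 40 (without aged sample 3) to 317 (without aged sample 2). The 12 members lower at an unadjusted p under 0.05 became 6 with 75th percentile scaling, where 2.72% of all tested genes were lower, and 7 when only probes detected in all 15 samples were kept, an alternative chosen after seeing the data that tests 15 members. Leaving out 1 sample gave 10 to 13. The median log2 fold change of the members was -0.58 with normexp background correction and -0.31 to -0.24 with 1 sample left out. Members at an adjusted p under 0.05 numbered 0 to 8 over the settings: 8 with array weights, 3 without young sample 2, and at most 2 otherwise. Pold3 turned to 0.0093 with 75th percentile scaling and to 0.0103 with the second of the repeat arrays, and ran from -0.082 (without aged sample 2) to 0.039 (without young sample 5) with 1 sample left out, above 0 also without young sample 9 (0.0038) and aged sample 4 (0.033). The median of all tested genes stayed within 0.1 of 0 under these settings. Young and aged samples share the numbers 1 to 6, which were not taken as pairs: the correlation of deviations of same-numbered samples was 0.18, 0.23, -0.09, -0.06, -0.10 and -0.02, and only numbers 1 and 2 correlated best with their own partner. With the replicate number as a block over these 12 samples 57 probes were called, against 125 in the same samples without it, and 11 members were lower at an unadjusted p under 0.05, with a median of -0.25. The cause of these shifts was not tested. A change of 0.5 on the log2 scale was seldom recovered in the simulation, so a member that missed the threshold may still differ.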
